A study of Bombus terrestris with 70 samples.

Results

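The fat body of Bombus terrestris (buff-tailed bumble bee) queens was compared between egg removal and control at the earlier of 2 sampling times, at which 10% of a cohort had died (TP1). The comparison rests on 12 libraries, 6 of egg removal and 6 of control, chosen by tissue, treatment and time point from the 70 samples of the series, of which 68 had a column of values. In egg removal, laid eggs were taken from the queen. In the control they were taken and then put back, so both groups met the same handling, and no group of undisturbed queens was used here. Each library held messenger RNA from the fat body of a single queen, made with a stranded kit. Age in days, mating and colony of the queens were not used here, and both groups were set by the share of the cohort that had died. The same comparison at 60% deaths (TP2) had 10 fat body libraries, 6 of egg removal and 4 of control, and is set beside the early one where stated.

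The insect fat body is a storage and secretory tissue that takes roles shared in vertebrates by the liver and adipose tissue. It stores lipid and glycogen, releases antimicrobial peptides into the haemolymph and, in laying females, makes the yolk precursor that the ovary takes up. Juvenile hormone acts on this tissue through transcription factors such as Kr-h1. The deposited values are normalized read counts in which the libraries of a tissue share 1 scale, and they are given as deposited unless parts-per-million of the column total (ppm) are named. Counts were not corrected for gene length, so levels are compared between groups and not between genes.

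A pair of very abundant transcripts took a larger share of the egg removal libraries than of the control libraries. LOC100652170, a protein-coding gene second in mean count over the 12 libraries, took 5.80% to 12.6% of all normalized counts in egg removal queens (median 9.27%), against 1.31% to 2.94% in control queens (median 2.29%). Every egg removal library lay above every control library. Its values were 2.65, 4.06 and 5.93 M (M stands for 1e+06 normalized counts; lowest, median and highest library) in egg removal and 0.415, 0.606 and 0.841 M in control. LOC100652170 rose by a log2 of 2.81 (SE 0.59, adjusted p = 0.00146 in the limma fit, n = 6 each) as deposited and by 2.06 (adjusted p = 0.00217) in ppm. With estimated depth as a covariate the rise was 1.68 (adjusted p = 0.0298), and among the 8 libraries of at least 30 M estimated reads the difference of 2.58 was not called (adjusted p = 0.0933).

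LOC100650436, the most abundant gene, took 15.7% to 27.4% of the counts in egg removal queens (median 23.2%), against 2.74% to 16.1% in control queens (median 11.5%). Its deposited values were 6.28, 10.96 and 14.5 M in egg removal and 0.843, 3.01 and 5.29 M in control (lowest, median and highest). The deposited values did not overlap, whereas the shares did, since 2 control queens (replicates 1 and 4, at 15.8% and 16.1%) exceeded the lowest egg removal queen. The gene rose by a log2 of 2.06 (SE 0.75, adjusted p = 0.0405). In ppm its difference was 1.31 (adjusted p = 0.117), with estimated depth as a covariate 0.77 (adjusted p = 0.496) and among the 8 libraries of at least 30 M estimated reads 1.30 (adjusted p = 0.509). As deposited it was not called without egg removal replicate 2, 3, 4, 5 or 6 or control replicate 2, 3 or 6 (adjusted p 0.06 to 0.0955). Over all libraries of each tissue this gene held 12.7% of the counts in the fat body, 0.278% in the brain and 0.00295% in the ovary.

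The 10 most abundant genes together held 41.6% ± 3.25 of the counts in egg removal queens and 24.3% ± 4.41 in control queens (SD, n = 6 each). The difference of 17.3 percentage points had an exact two-sided permutation p of 0.00216, the smallest that 924 assignments of 6 and 6 libraries allow. The other 8 of the 10 genes held 10.1% ± 1.74 in egg removal and 11.6% ± 2.31 in control (exact permutation p = 0.264, n = 6 each). The 2 leading genes together held 31.5% ± 4.54 in egg removal and 12.7% ± 5.14 in control (exact permutation p = 0.00216, n = 6 each). Column totals, which keep such differences because scaling by medians of ratios does not equalize them, were 39.9 to 56.7 M in egg removal and 23.7 to 32.9 M in control (exact permutation p = 0.00216, n = 6 each). LOC100650436 made up 40.0% of the difference between the mean totals and LOC100652170 made up 19.3%, while the genes outside the 50 most abundant made up 21.6%.

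**Figure D1:**
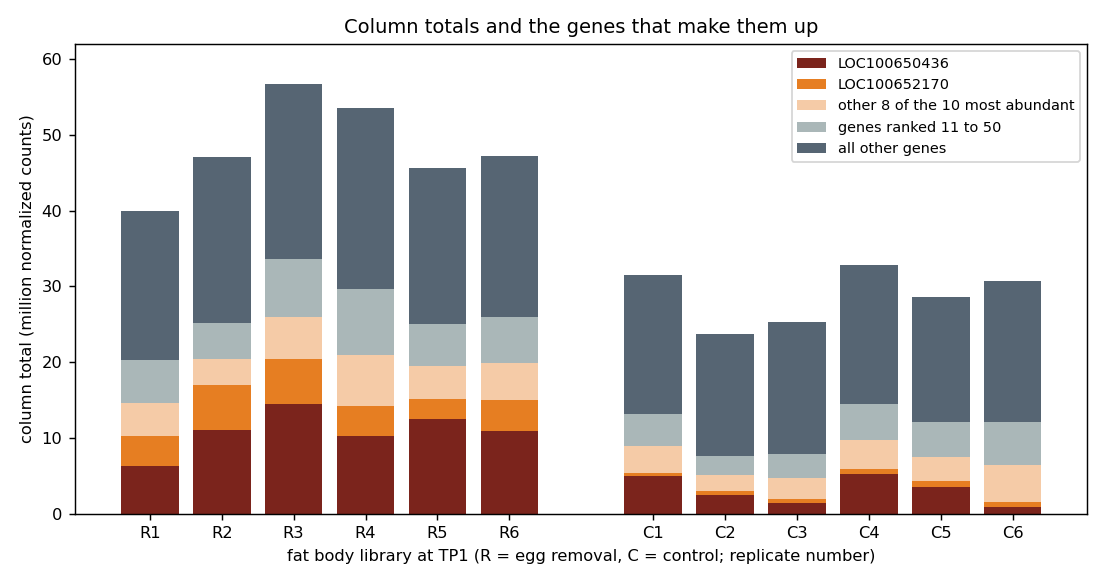
Column total of each fat body library at TP1 in M normalized counts (vertical axis), with the 6 egg removal libraries (R1 to R6) left of the 6 control libraries (C1 to C6). Each bar is stacked from the 2 most abundant genes, the other 8 of the 10 most abundant, the genes ranked 11 to 50 and all other genes. The 2 leading genes took 25.6% to 36.0% of the total in egg removal libraries and 5.23% to 17.9% in control libraries.

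Among the other abundant genes the directions were mixed. LOC100647796 rose by a log2 of 1.78 (SE 0.38, adjusted p = 0.00154), with 0.529, 0.935 and 1.276 M in egg removal (lowest, median and highest) and 0.179, 0.255 and 0.381 M in control. Its groups did not overlap, and it also rose in ppm (1.03, adjusted p = 0.00329) and with depth as a covariate (1.19, adjusted p = 0.0327), but was not called among the deeper libraries (1.78, adjusted p = 0.0709). LOC100650230 (1.17, adjusted p = 0.0171) and LOC100631053 (1.20, adjusted p = 0.0369) rose as deposited only, with overlapping groups and ppm differences of 0.42 and 0.45 (adjusted p 0.154 and 0.285). LOC100647222 rose by 0.74 as deposited (adjusted p = 0.0348), and its ppm difference was -0.0048 (adjusted p = 0.985), so its call belongs to the deposited scale. LOC100647222 was not called without egg removal replicate 3, 4, 5 or 6 or control replicate 2 or 6, and LOC100631053 without egg removal replicate 3, 4, 5 or 6 or control replicate 2, 3, 5 or 6 (adjusted p 0.0507 to 0.0875 over both genes). LOC100651168 (0.90), LOC100642443 (-0.86), LOC100651094 (-0.21) and LOC100644966 (-0.28) did not pass the test as deposited, at adjusted p between 0.102 and 0.726. In ppm the last 3 of these were called lower, at -1.61, -0.96 and -1.03 (adjusted p 0.0191, 0.0251 and 0.00211).

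Across all genes, limma called 3364 of the 10383 tested (32.4%) at an adjusted p under 0.05, 1715 higher (16.5%) and 1649 lower (15.9%) in egg removal queens. The rises were mostly modest. Among called genes the median log2 change was 0.76 for those higher (0.24 to 3.90) and -1.01 for those lower (-4.79 to -0.27). A log2 change of at least 1 was reached by 498 of the higher and 828 of the lower genes, and one of at least 3 by 9 and 26. Irrespective of the test, 1079 genes (10.4%) had all egg removal libraries above all control libraries and 711 (6.85%) had them all below, 17.2% of genes in all.

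Expressed as ppm of each column, the same libraries gave a different balance. Over all genes the log2 change had a median of -0.81 in ppm and -0.09 as deposited, and ppm changes are read against that shift. In ppm 6080 genes (58.6%) were called, 216 higher (2.08%) and 5864 lower (56.5%). All 216 genes higher in ppm were also higher as deposited, and all 1649 genes lower as deposited were also lower in ppm. Of the 1715 genes higher as deposited, 1416 were not called in ppm and 83 were called lower. With the 2 most abundant genes left out of the total, a setting added after seeing the data, 487 genes were higher and 3058 lower. Which scale is nearer to the amount of RNA per cell was not tested, and in whole tissue fewer cells of a type and less RNA per cell cannot be told apart.

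**Figure D2:**
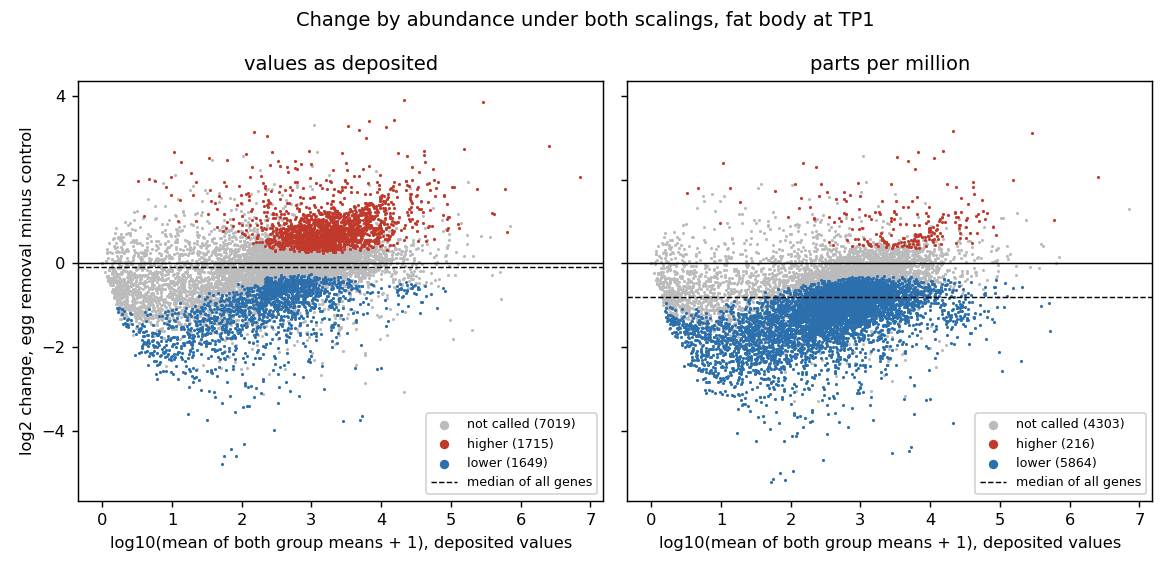
Log2 change of each tested gene (egg removal minus control, vertical axis) against log10 of the mean of both group means plus 1 (horizontal axis), with values as deposited at left and ppm at right. Red points were called higher (1715 as deposited, 216 in ppm) and blue points lower (1649 and 5864), and the dashed line is the median of all genes, at -0.09 and -0.81.

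The direction of change followed the level of a gene. Of 438 genes with a mean above 10000 over the 12 libraries, 164 were higher (37.4%) and 46 lower (10.5%) as deposited. Of 2879 genes between 1000 and 10000, 978 were higher (34%) and 222 lower (7.71%). Over all genes these shares were 16.5% and 15.9%. Of 4318 genes between 100 and 1000, 534 were higher (12.4%) and 819 lower (19%), with a median log2 change of -0.09. Below a mean of 100 more genes were lower than higher. Among 1683 genes between 10 and 100, 31 were higher (1.84%) and 413 lower (24.5%). Among 1065 genes under 10, 8 were higher (0.751%) and 149 lower (14%). The medians of the log2 change ran from -0.66 and -0.68 in the lowest classes to 0.36 in the highest. In ppm the median was negative in every class, from -1.03 and -1.38 in the lowest classes to -0.39 in the highest. More genes were listed at 0 in egg removal libraries (374 to 621) than in control libraries (178 to 399), with an exact permutation p of 0.00433 (n = 6 each).

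Depth moved with the treatment. Estimated depth was 49.3 ± 8.08 M reads in egg removal and 28.2 ± 14.6 M reads in control (SD, exact permutation p = 0.0173, n = 6 each), although control replicates 4 and 5 reached 49.5 and 43.6 M. With estimated depth as a covariate, 1650 genes (15.9%) were called, 828 higher (7.97%) and 822 lower (7.92%), and 1498 of them were called in the same direction without it. A further setting was added after seeing the data. It kept, of the TP1 libraries, only the 8 of at least 30 M reads (6 of egg removal, 2 of control). The 10 TP2 libraries stayed in that fit at any depth and entered its estimate of spread. The calls came to 609 (5.87%), with 318 genes higher (3.06%) and 291 lower (2.8%). Of the 609, 583 were called in the same direction in the full set and 0 in the opposite one. The first principal component of all fat body libraries held 35.5% of the variance. At TP1 the egg removal queens lay between 21.6 and 94.5 on it and the control queens between -43.2 and 14.8, with control replicate 4 nearest to egg removal. At TP2 the groups overlapped, with egg removal between -38.1 and 75.4 and control between -87.8 and -24.5.

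The genes with the smallest p among those higher in egg removal separated the groups with little spread. LOC100645929, a protein-coding gene, had 6442, 9069 and 11323 counts in egg removal queens (lowest, median and highest) and 2598, 2741 and 3037 in control queens. In ppm these were 141, 176 and 240.7 in egg removal and 88.2, 96.1 and 110 in control. All egg removal libraries lay above all control libraries on both scales. The log2 rise was 1.65 (SE 0.20, adjusted p = 0.000122) as deposited, 0.91 (adjusted p = 0.00028) in ppm and 1.27 (adjusted p = 0.0031) with depth as a covariate.

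LOC100646360 had 29898, 38299 and 50744 counts in egg removal queens, against 10926, 12949 and 14779 in control queens. Its ppm values, 742 to 895 in egg removal and 407 to 478 in control, also left a gap between the groups. It rose by a log2 of 1.59 (SE 0.21, adjusted p = 0.000151) as deposited and by 0.84 in ppm. LOC100646741 rose by 1.42, with 3266 to 4753 counts in egg removal and 1362 to 1648 in control. The remaining genes of this group were LOC100643797 (1.56), LOC100646150 (1.45), LOC100651285 (1.33), LOC100644916 (1.26) and LOC100651123 (0.85). Neither the files nor the gene table name a product for these 8 genes. All 8 were also called higher with depth as a covariate and among the deeper libraries, and 7 were called higher in ppm. The exception was LOC100651123, whose median was 40.7 ppm in egg removal and 38.1 ppm in control (log2 difference 0.10, adjusted p = 0.524).

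**Figure D3:**
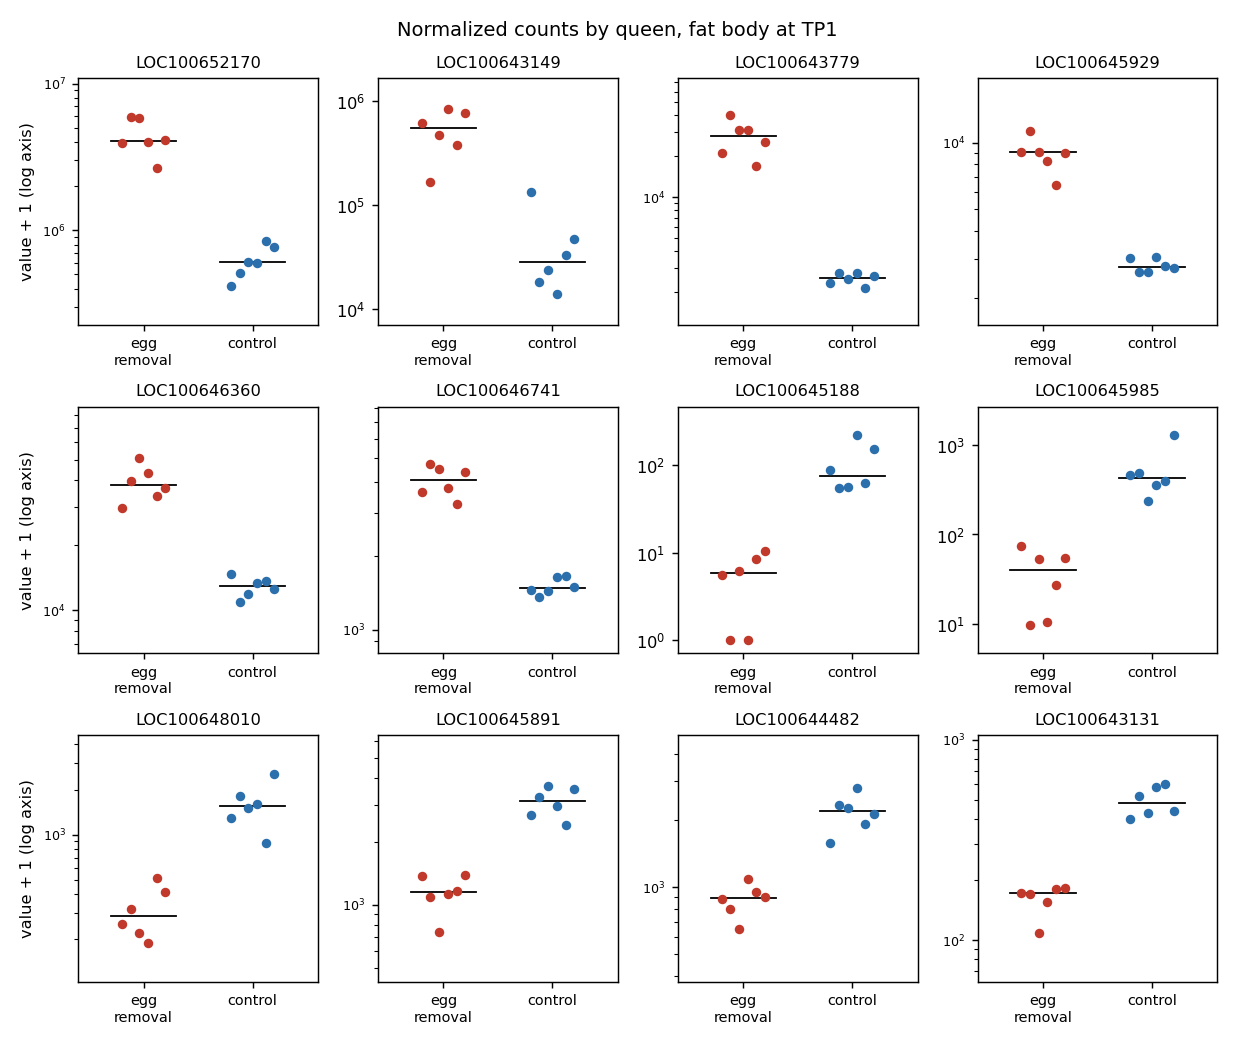
Normalized counts plus 1 (log axis) of 12 named genes in each fat body library at TP1, egg removal in red at left and control in blue at right, with a line at the group median. In LOC100643779 the egg removal queens lay between 17026 and 40434 and the control queens between 2118 and 2761. In none of the 12 genes did the groups overlap. The 12 were a selection from the 42 named genes, of which 30 did not overlap, beside 17.2% of all genes.

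The largest rises among called genes with a mean of at least 100 in the higher group were of a log2 of 3.29 to 3.90. LOC100643779 was the most even of these, with 17026, 28239 and 40434 counts in egg removal queens and 2118, 2548 and 2761 in control queens. The lowest egg removal queen had more than the highest control queen. The rise was 3.42 (SE 0.74, adjusted p = 0.0019) as deposited and 2.67 (adjusted p = 0.00347) in ppm. LOC100643149 had 166235, 542046 and 832391 counts in egg removal, against 13891, 28318 and 133426 in control, and rose by 3.85 (SE 0.95, adjusted p = 0.00468). As deposited the groups came close only at control replicate 1, the highest control library. In ppm they overlapped, with that library at 4226 and egg removal replicate 2 at 3533.

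LOC100645551 rose by 3.41 (adjusted p = 0.00117), with 3251 to 21548 counts in egg removal and 380 to 2571 in control. LOC100647218 rose by 3.29 (adjusted p = 0.00114), with 3234 to 12047 and 169 to 1996. LOC100645190 had the largest difference, 3.90 (SE 1.34, adjusted p = 0.0316), but its groups overlapped, since control replicate 4 reached 19183 counts where the other control queens had 440 to 3141 and the lowest egg removal queen had 16467. It was not called without egg removal replicate 1, 5 or 6 or control replicate 2, 3 or 6 (adjusted p 0.0504 to 0.076). All 5 genes were called in ppm as well. On that scale LOC100645551 overlapped too, with control replicate 4 at 78.2 ppm and egg removal replicate 4 at 60.7 ppm. With depth as a covariate LOC100643149 (2.83, adjusted p = 0.0709) and LOC100645190 (1.57, adjusted p = 0.420) were not called, and among the deeper libraries none of the 5 was.

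The genes lower in egg removal with the smallest p also showed a gap between the groups. LOC100648010 had 188, 284 and 507 counts in egg removal queens (lowest, median and highest) and 878, 1549 and 2526 in control queens. It fell by a log2 of 2.36 (SE 0.31, adjusted p = 0.000122). LOC100645891 had 745, 1145 and 1381 counts in egg removal, against 2404, 3115 and 3697 in control, a change of -1.44 (SE 0.18). LOC100644482 had 646, 894 and 1088 counts in egg removal, against 1590, 2210 and 2807 in control, a change of -1.31 (SE 0.17). In all 3 genes each egg removal queen lay below each control queen.

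LOC100652158 (-1.66), LOC100643131 (-1.63), LOC100644548 (-1.52), LOC100649058 (-1.31) and LOC100645830 (-1.16) completed this group, at adjusted p between 0.000122 and 0.000152. Their highest egg removal values were 419, 180, 218, 142 and 434 counts, and their lowest control values were 750, 401, 375, 221 and 572. All 8 genes were called lower in ppm, with depth as a covariate and among the deeper libraries. None of the 8 has a product name in the sources used here.

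The largest falls among called genes with a mean of at least 100 in the higher group were in genes sparse in egg removal queens. LOC100645188 had 0, 4.80 and 9.35 counts in egg removal, 2 libraries listed at 0, against 54.5, 74.0 and 222 in control. Its fitted change was -4.60 (SE 0.73, adjusted p = 0.000216). LOC110119724 had 1.03 to 9.99 counts in egg removal and 31.0 to 747 in control (-4.33, adjusted p = 0.00147). LOC100651538 had 0 to 15.8 and 27.3 to 413 (-4.45, adjusted p = 0.00169), and LOC100645985 had 8.74 to 73.9 and 232 to 1284 (-3.99, adjusted p = 0.000468). These 4 genes did not overlap between the groups.

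LOC110119148 (-4.60, SE 1.34, adjusted p = 0.0135) did overlap, with 3 egg removal libraries listed at 0 and 1 at 102 counts, against 74.9 to 174 in control. The size of a fitted change at such levels depends on the pseudocount of 1. All 5 genes were called lower in ppm. LOC110119148 was not called with depth as a covariate (adjusted p = 0.0652) or among the deeper libraries (adjusted p = 0.165), where LOC100651538 was not called either (adjusted p = 0.0992).

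Only 12 genes of the table carried a symbol or synonym in the RefSeq gene table, and 4 of them belong to 1 stretch of neighbouring genes with the letter codes of insect fatty acyl desaturases, enzymes that place double bonds in fatty acids. The order on the RefSeq assembly is LOC100650274 (GPTE), LOC100649922 (SPVE), LOC100650033 (LPQD) and npve. Of these, npve had 33833, 89890 and 165390 counts in egg removal queens and 19201, 25628 and 31185 in control queens. As deposited its groups did not overlap, with egg removal replicate 5 nearest to control. In ppm they did overlap, with that library at 741 and the control libraries at 641 to 1095. It rose by a log2 of 1.81 (SE 0.35, adjusted p = 0.000803) as deposited and by 1.06 (adjusted p = 0.00352) in ppm, and was not called among the deeper libraries (1.63, adjusted p = 0.0738).

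LOC100650274 had 300746, 338909 and 492767 counts in egg removal, against 59134, 105067 and 188045 in control, and rose by 1.77 (SE 0.62, adjusted p = 0.0329). LOC100650033 had 23674, 46781 and 51096 counts in egg removal, against 8717, 13967 and 23418 in control, and rose by 1.44 (SE 0.55, adjusted p = 0.0487). Both separated the groups as deposited, and neither was called in ppm (1.02 and 0.69, adjusted p 0.119 and 0.218) or with depth as a covariate. As deposited, LOC100650274 was not called without egg removal replicate 2, 3 or 6 or control replicate 1, 2, 3 or 5, and LOC100650033 without egg removal replicate 1, 2, 3 or 6 or any control library but replicate 6 (adjusted p 0.0511 to 0.0966 over both genes). LOC100649922 had a median of 111 counts in egg removal and 219 in control, with overlap. Its change of -0.94 was not called as deposited (adjusted p = 0.104) and was called in ppm (-1.69, adjusted p = 0.0112). Whether these 4 genes are near-identical copies that share reads was not tested, and the split of counts among them keeps that uncertainty.

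Kr-h1, a zinc finger transcription factor that responds to juvenile hormone, had 1432, 1913 and 2228 counts in egg removal queens and 787, 1072 and 1193 in control queens. Every egg removal library was higher, and the rise was a log2 of 0.83 (SE 0.19, adjusted p = 0.00245). In ppm the medians were 39.4 in egg removal and 39.3 in control, a difference of 0.08 (adjusted p = 0.785), so the rise of Kr-h1 was seen on the deposited scale and not as a share of the library. Kr-h1 was called with depth as a covariate (0.62, adjusted p = 0.043) and not among the deeper libraries (0.71, adjusted p = 0.127). Mpk likewise rose as deposited (1.05, SE 0.25, adjusted p = 0.00369), with 991 to 1570 counts in egg removal and 541 to 707 in control, and was not called in ppm (0.30, adjusted p = 0.212) or with depth as a covariate (0.65, adjusted p = 0.076).

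**Figure D4:**
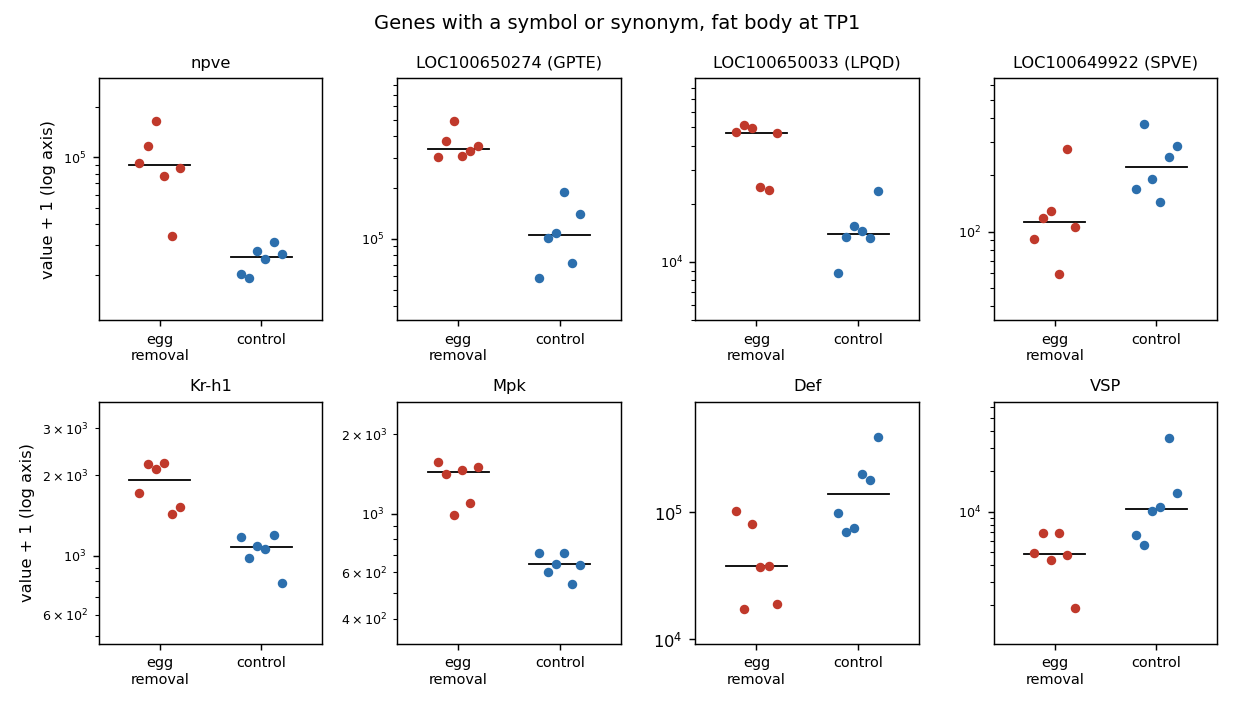
Normalized counts plus 1 (log axis) of 8 genes with a symbol or synonym in each fat body library at TP1, egg removal in red at left and control in blue at right, with a line at the group median. npve, LOC100650274, LOC100650033, Kr-h1 and Mpk separated the groups, whereas LOC100649922, Def and VSP overlapped.

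Def, which encodes the antimicrobial peptide defensin, pointed the other way. It had 17206, 37244 and 100466 counts in egg removal queens, against 69632, 137993 and 385487 in control queens. The groups overlapped, with egg removal replicates 1 and 3 inside the control range. The difference of -1.81 (SE 0.77) was not called as deposited (adjusted p = 0.0734) and was called in ppm (-2.56, adjusted p = 0.00713). VSP, a serine protease of bumble bee venom, had medians of 4863 counts in egg removal and 10438 in control, with overlap (-1.29, adjusted p = 0.0959), and was called lower in ppm (-2.03, adjusted p = 0.00547).

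The sex determination gene fem, known as feminizer from the honey bee, differed by -0.42 (adjusted p = 0.252), with medians of 1540 counts in egg removal and 2034 in control, and by -1.17 in ppm (adjusted p = 0.0167). The silk fibroin gene F2 was called lower (-1.26, adjusted p = 0.037) at 0.92 to 6.62 counts in egg removal and 2.64 to 12.7 in control, where the pseudocount weighs heavily, and lost its call (adjusted p 0.0574 to 0.0829) without any 1 of 8 libraries, which were egg removal replicates 2 to 5 and control replicates 2, 3, 4 and 6. The fibroin genes F1 and F3 were not called, at 0 to 9.37 and 0 to 2.40 counts in egg removal and 0 to 7.37 and 0 to 3.35 in control. The gene lists for hormone and insulin signalling, immunity and sex determination were represented by Kr-h1, Def and fem alone (1 of 19, 1 of 10 and 1 of 4 members), and the lists for storage proteins, antioxidants and the clock by no gene, so no statement on these pathways is made.

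Of 9590 protein-coding genes 1657 were higher (17.3%) and 1526 lower (15.9%). Most genes of the other classes were not called. Of 53 long non-coding RNAs 3 were higher and 11 lower (20.8%), of 33 pseudogenes 0 and 6 (18.2%), and of 29 miscellaneous RNAs 3 and 5 (17.2%), beside 16.5% higher and 15.9% lower over all genes. The medians of the log2 change were -0.08 for protein-coding genes, -0.45 for long non-coding RNAs, -0.36 for pseudogenes and -0.39 for miscellaneous RNAs, as deposited, beside -0.09 for all genes.

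No symbol of the fat body, oenocyte, haemocyte, neuron, glia, muscle or germline marker lists was found in the gene table, so the tissue label was set against genes rich in the other tissues of this series. The 46 genes with at least 200 ppm in the ovary and at most 2 ppm in the brain summed to 62.6 to 390 ppm in egg removal fat bodies (median 123) and 135 to 686 ppm in control fat bodies (median 178), against 762 to 51476 ppm in ovary libraries. None was called higher and 2 were called lower, with a median change of -0.28 as deposited, beside 16.5% higher, 15.9% lower and a median of -0.09 over all genes. The 41 genes rich in brain by the same limits summed to 153 to 257 ppm in egg removal (median 238) and 433 to 688 ppm in control (median 524), with no overlap, against 25088 to 71110 ppm in brain libraries. Of these 1 was called higher and 11 lower, with a median change of -1.01 as deposited, beside the same shares and median over all genes. LOC100650343, the most abundant of them in these fat bodies, had a median of 26.9 ppm in egg removal and 230 ppm in control. This 1 gene therefore weighs heavily in the summed difference. The sums are in ppm, where the median change over all genes was -0.81. No gene of either list was at 0 in all 12 libraries. Whether other tissue in the dissection takes part in the calls for lower genes was not tested.

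The early differences were set beside those at TP2, where 478 fat body genes (4.60%) were called. Both time points entered 1 fit but share no library. Of the 1715 genes higher early, 133 were also called higher late and 1 was called lower, and their median late change was 0.33, beside 0.00 for all genes. Of the 1649 genes lower early, 115 were called lower late and 8 higher, with a median late change of -0.29. Most early calls therefore had no call at TP2, where the control group held 4 libraries.

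LOC100650436 differed at both times, with 2.18, 4.94 and 6.38 M counts in egg removal and 0.0114, 0.0508 and 1.33 M in control at TP2, a log2 difference of 5.82 (SE 0.84, adjusted p = 0.00653). The late minus early difference for this gene was not called (3.77, adjusted p = 0.0825). LOC100645929, LOC100646360 and LOC100643797 were called higher at TP2 too, by 1.02, 0.97 and 1.09. LOC100643779 (2.96), LOC100645551 (3.07) and LOC100647218 (3.04) were called higher late as well, as was Mpk (1.18), and LOC100651538 was called lower late (-4.07). LOC100652170, by contrast, was not called late (1.49, SE 0.66, adjusted p = 0.165), and its late minus early difference was not called either (-1.31, adjusted p = 0.452).

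The interaction test, which asks whether the treatment difference changed between the times, called 109 of 10383 genes (1.05%), 0.799% with a positive and 0.25% with a negative late minus early difference, and 8 of the 42 named genes. These genes were chosen on the early difference, which is 1 of the 2 terms in this test, so the count is a description. Of the 8 genes with the smallest p among those lower early, 7 were called, and their late changes lay between -0.23 and -0.02. LOC100645891 is an example, with medians of 2083 counts in egg removal and 2205 in control at TP2, against 1145 in egg removal and 3115 in control at TP1. Its late minus early difference was 1.42 (adjusted p = 0.0265). LOC100644916 was the only such gene among those higher early, with medians of 3000 counts in egg removal and 2733 in control at TP2 and a late minus early difference of -1.18 (adjusted p = 0.0307). These interaction calls were easily lost when a library was left out, but not through 1 library alone. The late minus early difference of each of the 8 genes kept its sign in all 22 such fits. Among the 8, the call was kept in the fewest fits for LOC100643131 (6 of 22) and in the most for LOC100645891 (16 of 22). With each of the 22 fat body libraries left out in turn, between 0 and 12 named genes were called, and 6 of the 22 fits called none, namely those without egg removal TP1 replicate 2 or 3, control TP2 replicate 3, or egg removal TP2 replicate 1, 4 or 5.

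**Figure D5:**
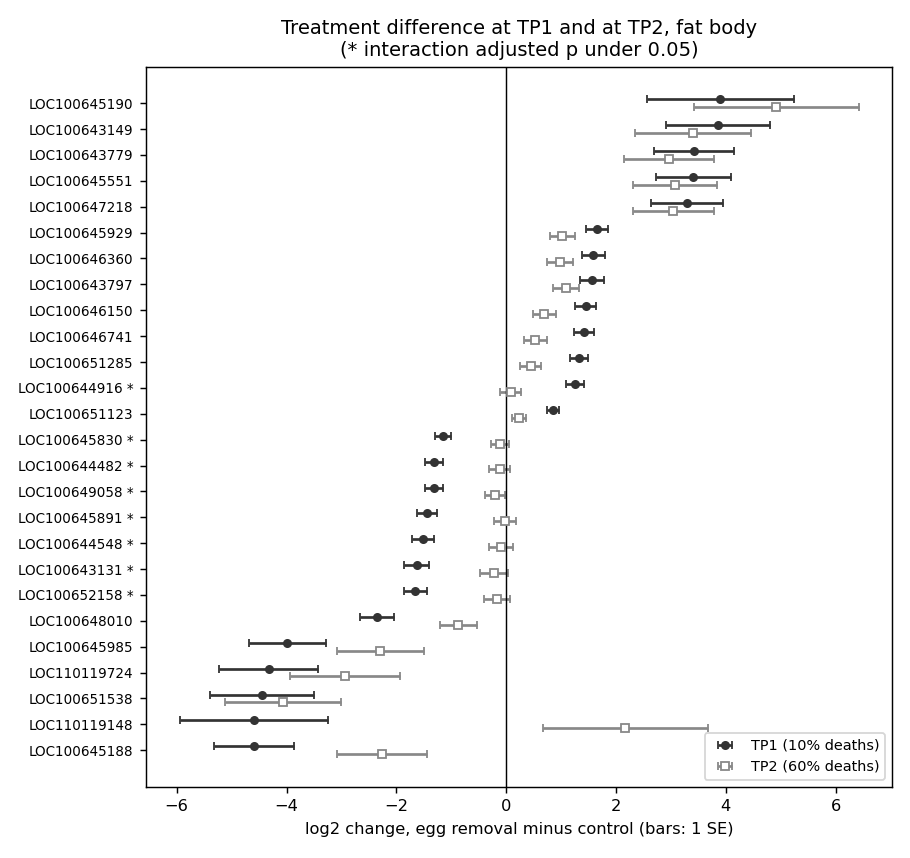
Log2 change (egg removal minus control, horizontal axis) of 26 named genes at TP1 (filled circles) and at TP2 (open squares), with bars of 1 SE from the limma fit. Genes marked with an asterisk had an interaction adjusted p under 0.05. The 7 such genes that were lower at TP1 lay between -0.23 and -0.02 at TP2.

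In the same comparison in the other tissues, 246 of 10388 genes (2.37%) were called in the brain, 74 higher (0.712%) and 172 lower (1.66%), and 0 of 10401 (0%) in the ovary by limma, where 1111 had an unadjusted p under 0.05. No other tool was run on the ovary. Of the fat body genes higher early, 1714 were in the brain table, and 36 of these were called higher and 5 lower there. Of the genes lower early, 1634 were in the brain table, with 59 called lower and 1 higher. LOC100651123 was the 1 named gene called in the brain, higher by 0.31 (adjusted p = 0.0353). Each tissue was scaled by itself, so these are changes within a tissue and not levels across tissues.

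A smaller set of genes was called under each of several settings of scale and of depth. The setting that joins both, ppm with depth as a covariate, was not among them and called 77 genes higher and 3123 lower. Called in the same direction as deposited, in ppm, in ppm without the 50 or the 2 most abundant genes, with depth as a covariate and among the deeper libraries were 115 genes higher in egg removal, with log2 changes of 1.10 to 3.27, and 274 genes lower, with a median of -0.99. All 1649 genes lower as deposited were also called lower in each of these ppm settings. For falls, therefore, only the settings of depth narrowed the set. The groups did not overlap in 109 of the 115 and in 200 of the 274, which were chosen by their calls, beside 10.4% of all genes above and 6.85% below. Of the 42 named genes, 7 of the higher and 11 of the lower were among them. The 7 were the genes with the smallest p apart from LOC100651123. The 11 were the 8 with the smallest p together with LOC100645188, LOC110119724 and LOC100645985.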

How the data were processed

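Fat body messenger RNA of single queens was sequenced on 2 lanes per library. The authors deposited 1 table of normalized counts per tissue (a signal with decimals), and the submitters' processing notes name kallisto 0.46.1, R 4.0.1 and DESeq2 1.28.1. For genome build, annotation and strand setting, none was given in the sources used here. The median ratio to each gene's geometric mean was equal in all fat body columns (1.0055), as scaling by medians of ratios gives. Whole reads could not be recovered (of values worth 5 to 20 reads, 22.4% to 79.3% per fat body library lay within 0.05 of a whole number), so no count model was used, and counting intervals per gene were not computed. Depth was estimated as the column total over the value of 1 read and is approximate. A RefSeq gene table (assembly iyBomTerr1.2) matched 93.4% of 10432 identifiers and gave symbols, gene class and neighbours only, since the authors' build is not named.

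Genes with a mean of at least 1 in at least 1 of 4 fat body groups were kept (10383). limma 3.58.1 (R 4.3.3, statmod 1.5.0) fitted a mean per group to log2(value + 1), with trend and robust options. A fold change on this scale understates that of genes with low values. P-values were adjusted by Benjamini-Hochberg over all genes tested, and a call is an adjusted p under 0.05. For parts-per-million, each column was scaled to the same total and then brought to the mean total of the columns, so that the pseudocount of 1 kept its weight. Library values were compared with exact two-sided permutation tests (scipy 1.17.1). The fit was tested on simulated data. Each library is 1 queen, per the labels.

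Genes were named by rule: among called genes, in each direction, the 8 of smallest p and the 5 of largest change at a mean of at least 100 in the higher group, and besides these the 10 with the highest mean, called genes with a symbol, and Kr-h1, Def, fem and LOC100650436. The comparison, the members and the lists were chosen with earlier results of these data known. Lists by protein motif could not be built without protein sequences. Genes with near-identical copies or antisense partners carry the uncertainty of the authors' counting.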

Additional observations from a re-analysis of the deposited data

Results flagged for a closer look

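Of 108 sets of 6 libraries examined for a library far from the others, 10 held one by Dixon's criterion, where chance gives about 1 in 20. Control replicate 6 stood high for LOC100651538 (413 counts, others 27.3 to 144), LOC100645985 (1284, others 232 to 486) and LOC100651094 (1047510, others 343852 to 592666). Control replicate 6 also had the lowest estimated depth of the 12 libraries (14.1 M reads) and the smallest share of LOC100650436 (2.74%). Control replicate 4 stood high for LOC100645190 (19183, others 440 to 3141) and LOC110119724 (747, others 31.0 to 286), and control replicate 1 for LOC100643149 (133426, others 13891 to 47096). Egg removal replicate 5 stood high for LOC100649058 (142, others 87.1 to 107) and LOC100644548 (218, others 150 to 163), and replicate 1 for LOC100651538 (15.8, others 0 to 5.54). Egg removal replicate 3 stood low for LOC100643131 (107, others 154 to 180).

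The limma interaction test called a change of the treatment difference between the 2 times in 8 named genes. All 8 were named for a small early p, and the early difference is 1 of the 2 terms in this test. The count is therefore a description, and with the deeper TP1 libraries it was 0. The late minus early difference in log2 change was 1.42 for LOC100645891 (adjusted p = 0.0265), 1.42 for LOC100644548 (0.0267), 1.19 for LOC100644482 (0.0274), 1.48 for LOC100652158 (0.033), 1.04 for LOC100645830 (0.033), 1.10 for LOC100649058 (0.0365) and 1.41 for LOC100643131 (0.0469). For LOC100644916, which was higher early, it was -1.18 (0.0307). Each of the 8 lost its call in some of the 22 fits that left out 1 library, in which their highest adjusted p lay between 0.0738 and 0.105.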

How the results depend on the processing

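The count of 3364 genes (1715 higher, 1649 lower) stayed within 1.5 times under both other pseudocounts, both other filters, a fit of the TP1 libraries alone (3978) and weights per library (4718). It lay between 2672 (without control replicate 2) and 3323 (without egg removal replicate 1) when each TP1 library was left out, with 1380 to 1705 higher and 1292 to 1636 lower. Parts-per-million gave 6080 calls (216 higher, 5864 lower), 770 higher and 3128 lower without the 50 most abundant genes, 487 and 3058 without the 2 most abundant, and 77 and 3123 with depth as a covariate as well. Depth as a covariate alone gave 1650 (828 higher, 822 lower), and TP1 libraries of at least 30 M reads gave 609 (318 and 291). Calls that also need a log2 change of at least 1 in size came to 1326 (498 and 828). The settings without the 2 most abundant genes, with ppm and depth together and with the deeper libraries were added after seeing the data. LOC100647222 changed sign in ppm (-0.0048) and in ppm with depth (-0.21). Named genes called in the interaction were 3 in ppm without the 2 most abundant genes, 18 with weights per library, 0 with the deeper libraries and 0 to 12 with 1 library left out. The difference in the share of the 10 most abundant genes was 16.2 to 18.4 points with 1 library left out, at an exact permutation p of 0.00433. The causes of these changes were not tested.

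The replicate numbers were not taken as pairs. The correlation of same-numbered libraries lay between -0.09 and 0.32 and was over 0.1 in 2 of 6 pairs. Of the egg removal libraries, 2 of 6 correlated best with their own number. No chance level was computed for these values, so they cannot exclude a weak pairing. With the replicate block 3271 genes were called (1650 higher, 1621 lower), 3122 of them in the same direction as without it. Depth limits what can be said of genes under about 10 counts, where a few reads decide a value.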

Other observations

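Genes called with an absolute log2 change of at least 1 sometimes lay side by side among the 9705 tested genes with a position on the RefSeq assembly. This was looked for after the values had been seen, and no test of clustering was made. The longest runs in 1 direction were 1 of 6 genes lower in egg removal and, at 4 genes each, 3 runs higher and 2 lower. Most genes past this limit, 374 of those higher and 589 of those lower, had no such neighbour. Whether any of these neighbours are near-identical copies that share reads was not tested.

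One run higher in egg removal held LOC100647883, LOC100647759, LOC100648381 and LOC100648496, with log2 changes of 3.27, 2.64, 1.32 and 1.19. LOC100647883 had 8239, 18827 and 38006 counts in egg removal queens (lowest, median and highest) and 912, 2175 and 4699 in control queens. LOC100647759 had 19189, 24894 and 50848 in egg removal and 2307, 4233 and 11210 in control. The groups did not overlap in these 2 genes, which were also called higher in ppm (2.52 and 1.89), with depth as a covariate and among the deeper libraries. At TP2 LOC100647759 was still called higher (1.92, adjusted p = 0.0432), whereas LOC100647883 was not (0.51, adjusted p = 0.668), and its late minus early difference of -2.75 was not called (adjusted p = 0.106). Their neighbours LOC100648381 and LOC100648496 overlapped between the groups and were not called in ppm.

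A second run higher in egg removal held LOC100651360, LOC100651478, LOC100651595 and LOC100651790. LOC100651595 had 883, 11897 and 20786 counts in egg removal and 193, 1207 and 4293 in control, with overlap (2.99, SE 0.80, adjusted p = 0.00817). LOC100651790 had 1183, 4734 and 9526 in egg removal and 97.0, 1049 and 2191 in control (2.40, adjusted p = 0.0215), and was not called in ppm (adjusted p = 0.074). Both were called higher with depth as a covariate and among the deeper libraries, where their differences were 5.11 and 4.00.

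The third run higher held LOC100644353, LOC100644470, LOC100644235 and LOC100643996, all 4 called higher in ppm too. With depth as a covariate and among the deeper libraries LOC100644353 was called and the other three were not (adjusted p 0.229, 0.0634 and 0.116 with the covariate). LOC100644353 had 4122, 4473 and 6279 counts in egg removal and 1769, 2112 and 2334 in control, with no overlap (1.23, SE 0.20, adjusted p = 0.000248). LOC100643996 had 8863 to 18063 in egg removal and 3234 to 7288 in control (1.33, adjusted p = 0.00573).

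The run of 6 lower genes, LOC105666514, LOC100642302, LOC100642420, LOC105666516, LOC100651140 and LOC100651385, was made of genes with low counts. LOC100651140 had 11.3, 16.8 and 29.8 counts in egg removal and 44.6, 54.7 and 166 in control (-1.87, SE 0.41, adjusted p = 0.00188), and LOC105666514 had 35.2 to 92.9 and 107 to 227 (-1.18, adjusted p = 0.0115). At TP2 neither was called, with changes of -0.39 and -1.11. Of the 6 genes, only LOC105666516 and LOC100651140 were called lower with depth as a covariate, and none was called among the deeper libraries. In the lower runs of 4 genes, LOC100648059 and LOC100644468 were listed at 0 in all 6 egg removal libraries, and reached 8.76 and 8.10 counts in the highest control library. Neither of these was called with depth as a covariate or among the deeper libraries.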
